A study of Homo sapiens with 3 samples.

Results

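The comparison described here sets Molm13 cells treated with 100 nM pyrvinium for 6 h against cells treated with 50 nM pyrvinium for the same time. It uses 2 of the 3 RNA libraries of the study, the 100 nM library and the 50 nM library, and was chosen by the dose in the sample labels and not by any measured value. Molm13 is an established human acute myeloid leukemia line from peripheral blood that carries an internal tandem duplication of the receptor FLT3, and asynchronous cells were grown in RPMI medium with serum. The third library, from cells given the vehicle dimethyl sulfoxide (DMSO) for 6 h, took no part in the test and is printed beside it to show where each gene started. Each condition was 1 library of 1 cell line, so a difference between the doses has no replicate check, and all tests and intervals below hold counting error only. The study's methods describe the DMSO and 100 nM cells, prepared with a stranded mRNA kit, while the 50 nM library is known from its labels alone.

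Pyrvinium is an anthelmintic dye that gathers in mitochondria and lowers respiration. Mitochondrial trouble, lack of amino acids and unfolded protein all lead to phosphorylation of the initiation factor eIF2α, which slows protein synthesis in general while the mRNA of the transcription factor ATF4 is translated better. ATF4 then raises genes for amino acid uptake and synthesis, for charging of tRNA and, under strong stress, for the factor CHOP and its targets. This is the integrated stress response. The heat shock factor HSF1 and the unfolded protein response of the endoplasmic reticulum (ER) control chaperone genes separately. With more of the drug, a gene may go on moving in the same direction or may already have reached its plateau at the lower dose, and the comparison of both doses separates these cases as far as single libraries allow.

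The libraries held 22677038 counts at 50 nM, 24075123 at 100 nM and 23165771 with DMSO. A total of 10982 genes with 50 or more counts in either treated library were tested, after scaling by the library totals. A gene was called higher or lower at 100 nM when its counts differed in a two-sided exact binomial test (p of at most 0.05 after Benjamini-Hochberg adjustment) and the ratio was 1.5-fold or more. A gene was called level when the 95% Clopper-Pearson interval of its ratio lay wholly between 20% below and 25% above equality. By these rules 80 genes (0.728%) were higher at 100 nM, 30 genes (0.273%) were lower, 7246 genes (66.0%) were level and 3626 were none of these. The median log2 ratio of 100 nM to 50 nM was 0.00 with an SD over genes of 0.18. Depth set which genes could be called level. Of the 1941 genes with a mean under 200 counts, 0.927% were level, against 60.9% of those from 200 to under 1000, 95% of those from 1000 to under 5000 and 97.8% of the 847 genes above. Likewise 57 of the 80 higher and 26 of the 30 lower genes stayed under 200 counts in both libraries. In a bulk library, fewer cells of a type and less RNA per cell cannot be told apart. The calls do not carry over to a spread between cultures. When a biological coefficient of variation of 0.1 was assumed in place of none, the edgeR exact test called 1 gene higher, the mitochondrial ribosomal RNA MT-RNR1, and 7 lower, all of them genes without a symbol described near the end, and with 0.2 it called 0 and 3.

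**Figure D1:**
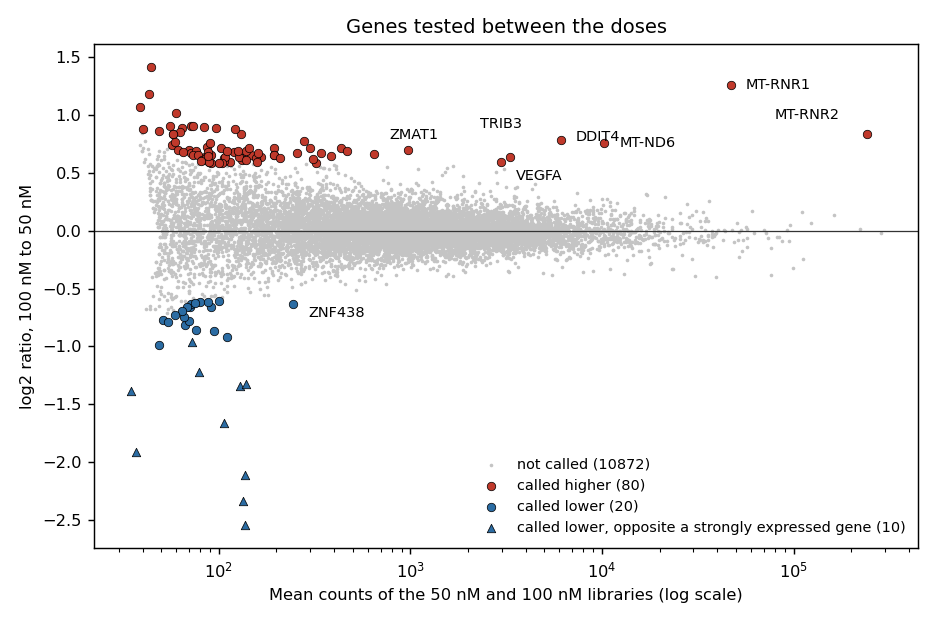
Each point is 1 of the 10982 tested genes, with the mean counts of both treated libraries on a log axis and the log2 ratio of 100 nM to 50 nM on the other, and called genes are coloured. Most called genes lie at low counts, while MT-RNR1, MT-RNR2, DDIT4, MT-ND6, TRIB3 and VEGFA are called at high counts, and 10 of the 30 lower genes (triangles) lie opposite a strongly expressed gene.

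Programs were described with 39 gene lists, of which 36 had 7 or more tested members. The median log2 ratio of 100 nM to 50 nM was at least 0.1 in 5 of the 36, at most -0.1 in 4 and nearer to 0 in the other 27. On the higher side were the regulators of the ATF4 response, amino acid transporters, serine and one-carbon enzymes, output genes of the kinase ERK and p53 targets. The lower side held mRNAs of the mitochondrial genome, cytosolic heat shock proteins, the DNA replication machinery and the proteasome. Few members in any list passed the 1.5-fold rule, so most of what follows concerns ratios whose counting interval leaves 0 without reaching that size. Over all tested genes 14.5% had an interval above 0 and 15.3% one below 0. These shares were not taken at like depth, and in deep genes a very small ratio is enough for an interval to leave 0.

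**Figure D2:**
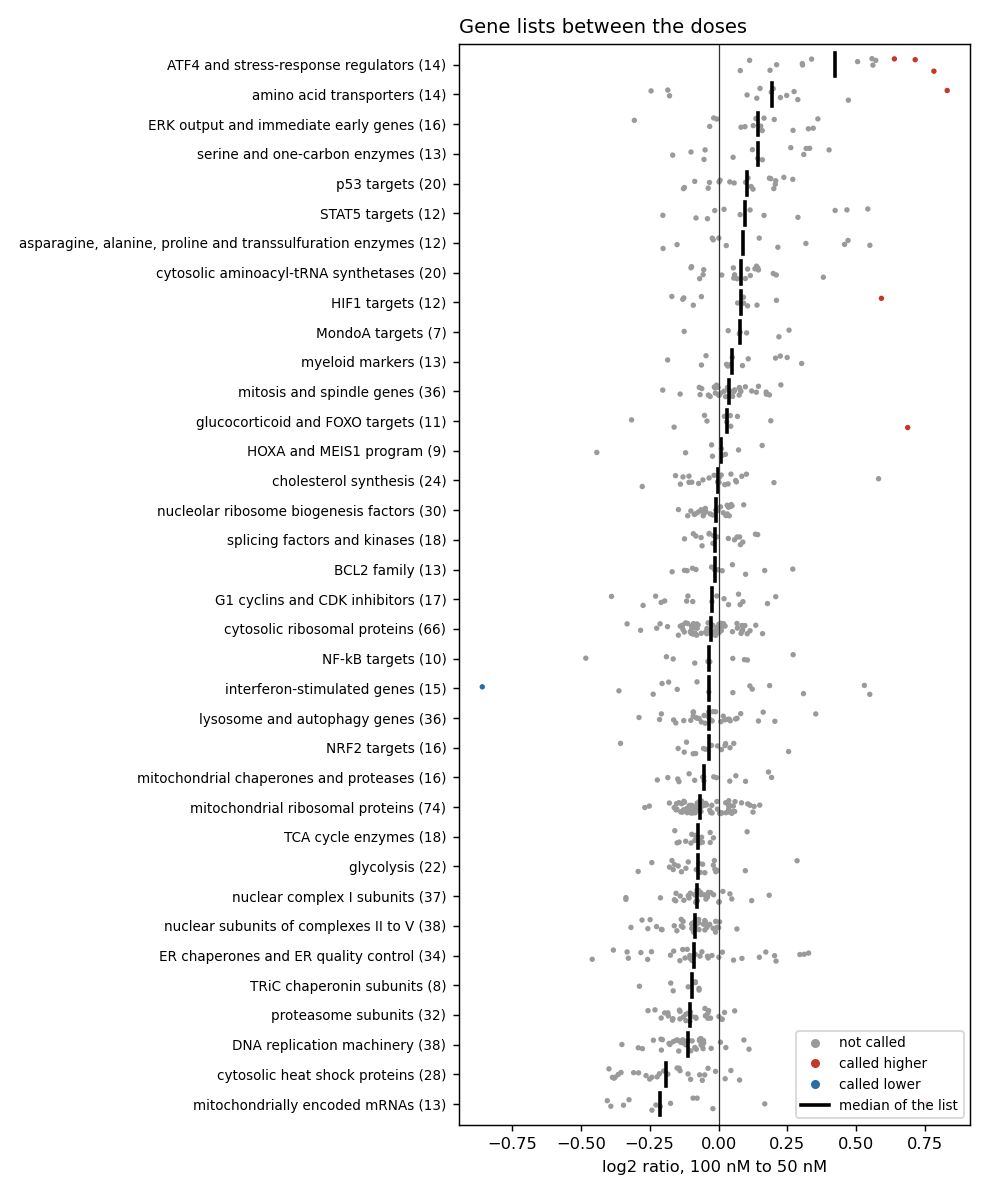
Each row is 1 gene list with its number of tested members in brackets, each point is a member's log2 ratio of 100 nM to 50 nM, red and blue mark genes called higher and lower, and the bar is the list's median. The regulators of the ATF4 response lie farthest to the right with 14 of 14 members above 0, and the mitochondrially encoded mRNAs and cytosolic heat shock proteins farthest to the left.

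The regulators of the stress response still moved between the doses. All 14 tested members had an interval above 0, 3 were called higher, none lower, and 4 were level, with a median log2 ratio of 0.42. The same members had a median of 0.44 from DMSO to 50 nM, a ratio that shares the 50 nM library. DDIT4 encodes REDD1, a brake on the growth kinase complex mTORC1. It had 2335 counts with DMSO, 4313 at 50 nM and 7879 at 100 nM, and rose between the doses with a log2 ratio of 0.78 (95% interval 0.73 to 0.84; exact binomial test, Benjamini-Hochberg adjusted p = 5.86e-185). CHAC1, which degrades glutathione, had 88, 219 and 382 counts in the same order, a log2 ratio of 0.71 (0.47 to 0.96). TRIB3, a pseudokinase induced through CHOP, had 1739, 2480 and 4101 counts and a log2 ratio of 0.64 (0.57 to 0.71). In all 3 genes the step from 50 to 100 nM added to that from DMSO to 50 nM, and the 100 nM library was the highest.

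Other members stood just under the 1.5-fold rule. DDIT3, the gene of CHOP, had 236, 319 and 500 counts and a log2 ratio of 0.56 (0.36 to 0.77). SESN2, a leucine sensor that restrains mTORC1, had 600, 1300 and 2032 counts, also 0.56. The lipoprotein receptor gene VLDLR had 706, 1202 and 1812 counts, a log2 ratio of 0.51. ATF3, a further stress-induced factor, differed from these in its start, with 213 counts for DMSO and 221 at 50 nM before 349 at 100 nM (0.57, 0.33 to 0.82). From DMSO to 50 nM the log2 ratio was 0.46 for DDIT3, 0.08 for ATF3, 1.15 for SESN2 and 0.80 for VLDLR, so ATF3 had nearly all of its difference above 50 nM and SESN2 and VLDLR the larger part below it. ATF5 (0.34), CEBPB (0.31) and JDP2 (0.30), which encode factors that pair with or act beside ATF4, came next.

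At the bottom of the list stood ATF4 itself and genes that feed back on translation. ATF4 had 12788 counts with DMSO, 16646 at 50 nM and 18669 at 100 nM, which is a log2 ratio of 0.41 up to 50 nM and 0.08 (0.05 to 0.11) beyond it, and it was level. EIF4EBP1, a repressor of cap-dependent translation, had 5980, 6118 and 7025 counts (0.11). PPP1R15A, which returns eIF2α to its unphosphorylated form, had 838, 938 and 1134 counts (0.19), and CEBPG, a dimer partner of ATF4, 3191, 3586 and 4407 (0.21). All 4 were level. From DMSO to 50 nM the log2 ratio was 0.06 for EIF4EBP1, 0.19 for PPP1R15A and 0.20 for CEBPG. Of the 4 only ATF4 thus had a much smaller step beyond 50 nM than below it, and its interval still lay above 0. Several mRNAs known to lie downstream of ATF4 had larger steps between the doses.

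The promoters of some of these genes are printed because ATF4 binds its targets at a composite site with C/EBP factors whose core reads TGATGNAA. The 250 bases before the first listed start in RefSeq (GRCh38.p14) were searched on both strands for these letters, which were found in 870 of 27305 promoters (3.19%) and in 112 of the 8655 promoters of tested genes (1.29%). They were found in 2 of 13 regulators with a promoter (CHAC1 and ATF3), in ASNS and GOT1 among 7 asparagine, alanine, proline and transsulfuration enzymes, in MTHFD1L among 8 serine and one-carbon enzymes, in AARS1 and IARS1 among 16 aminoacyl-tRNA synthetases and in none of 13 amino acid transporters. Among the 52 higher genes with a promoter there were 4. The match is in capitals, each sequence reads 5′ to 3′ along the gene, and a match on the other strand appears as its reverse complement. A match is a description of letters, not a bound site.
CHAC1 (chr15:40953236-40953295, plus strand): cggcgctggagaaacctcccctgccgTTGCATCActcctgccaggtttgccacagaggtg
ATF3 (chr1:212565190-212565249, plus strand): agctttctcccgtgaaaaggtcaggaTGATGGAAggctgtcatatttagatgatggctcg
ASNS (chr7:97872443-97872502, minus strand): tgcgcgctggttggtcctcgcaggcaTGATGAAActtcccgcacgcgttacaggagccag
AARS1 (chr16:70289660-70289719, minus strand): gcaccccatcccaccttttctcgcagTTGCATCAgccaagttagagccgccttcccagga
CHAC1 and ATF3 had log2 ratios of 0.71 and 0.57 between the doses, ASNS 0.47 and AARS1 0.12, so the same core letters stood before genes with unlike steps.

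Amino acid transporters continued upward with smaller steps. Of 14 tested members 10 had an interval above 0 and 2 below, 9 were level and 1 was called higher, with a median log2 ratio of 0.20 after 0.28 from DMSO to 50 nM. SLC6A9, the glycine transporter GlyT1, was the called one, with 21, 40 and 76 counts and a log2 ratio of 0.83 (0.27 to 1.43). Its low counts left a wide interval. SLC7A11, the cystine importer, had 783, 1517 and 2234 counts (0.47, 0.38 to 0.57). The large transporters for neutral and cationic amino acids moved by less, as SLC7A5 had 13742, 18612 and 24131 counts (0.29), SLC7A1 6577, 8793 and 11293 (0.27), SLC1A5 11023, 13273 and 16174 (0.20) and SLC38A2 8293, 9738 and 12276 (0.25). SLC3A2, the heavy chain shared by SLC7A5 and SLC7A11, had 6224, 8896 and 10486 counts, a log2 ratio of 0.55 up to 50 nM and 0.15 (0.11 to 0.19) beyond. It was level, as were the other 4. At the other end SLC7A6 had 2954, 2390 and 2141 counts (-0.25, -0.33 to -0.16).

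Enzymes of amino acid synthesis fell into those with a further step and those that were level between the doses. In transsulfuration, CTH makes cysteine from cystathionine and had 241, 591 and 919 counts, a log2 ratio of 0.55 (0.40 to 0.70), and CBS, the enzyme before it, 982, 1231 and 1629 (0.32). Asparagine synthetase ASNS had 2162, 3978 and 5853 counts (0.47, 0.41 to 0.53) and the mitochondrial PEP carboxykinase PCK2 2085, 3426 and 4997 (0.46). None passed the 1.5-fold rule. GPT2, which makes alanine, had 1971, 3073 and 3789 counts, 0.67 up to 50 nM and 0.22 beyond, and was level. GOT1 stayed at 0.03 after 0.38. The proline enzymes PYCR1 and PYCR3 had ratios of 0.00 and -0.02, and the last of the group was GOT2 (-0.20, level). Over the 12 members of this list 6 intervals lay above 0 and 2 below, 8 were level, 0 were called, and the median was 0.09.

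The serine pathway showed the same split by enzyme. PSAT1 had 9214, 14606 and 19340 counts (0.32, 0.29 to 0.35) and PSPH 1774, 2140 and 2726 (0.26), whereas PHGDH, which opens the pathway, had 4577, 6194 and 7163 counts and a step of 0.12 after 0.47. Of the mitochondrial folate enzymes, ALDH1L2 had 2615, 3722 and 5221 counts (0.40), MTHFD2 11249, 14768 and 19436 (0.31), MTHFD1L 0.14 and SHMT2 0.05 after 0.43 up to 50 nM. PHGDH, MTHFD1L and SHMT2 were level. The folate enzymes of nucleotide synthesis lay on the other side, with TYMS at 9066, 8220 and 7776 counts (-0.17) and MTHFD1 at -0.10, both level. Of 13 members 7 intervals lay above 0 and 2 below, 7 were level and 0 were called, with a median of 0.14 after 0.35.

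The aminoacyl-tRNA synthetases, which load amino acids onto tRNA, had a smaller median step than below 50 nM. Of 20 cytosolic enzymes 13 intervals lay above 0 and 4 below, 0 were called and 19 were level, a share no higher than that of all genes at such depth, and the median log2 ratio was 0.08 after 0.23 from DMSO to 50 nM. The gene that was not level was the cysteine enzyme CARS1, with 1981, 2647 and 3660 counts (0.38, 0.31 to 0.45). GARS1 (7921, 9936 and 12201 counts, 0.21) and WARS1 (3433, 4130 and 5033, 0.20) followed, and AARS1 had 6647, 8584 and 9874 counts, a step of 0.12 after 0.40. The lowest was RARS1 at 3631, 3178 and 3148 counts (-0.10).

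**Figure D3:**
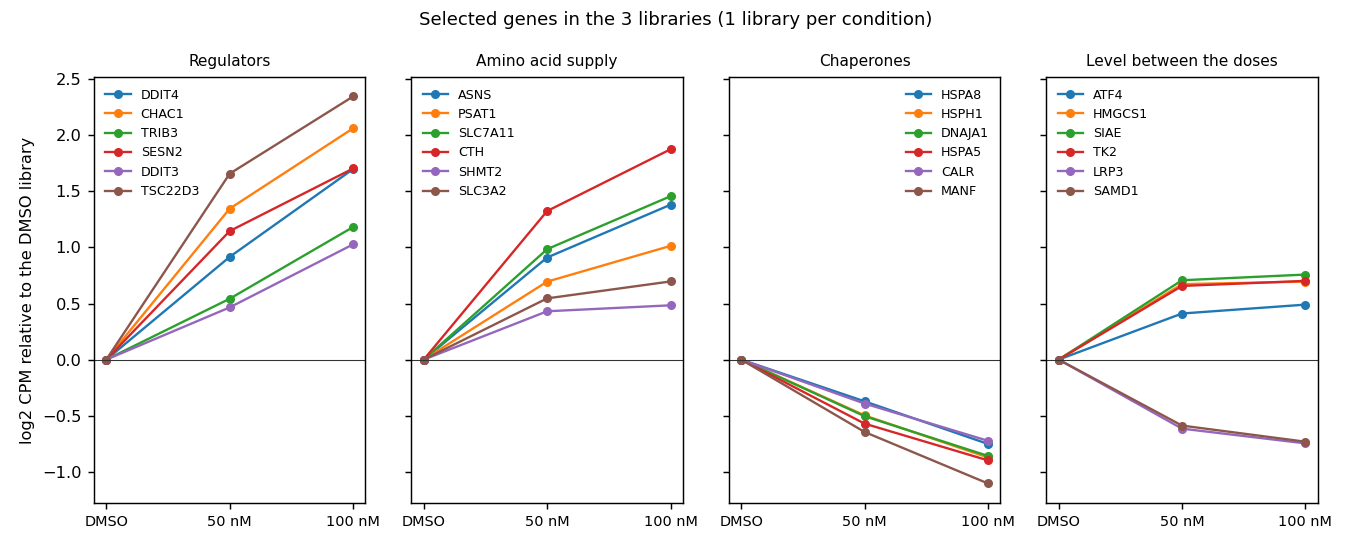
Lines join the log2 CPM (counts per 1000000 counts of the library) of single genes in the DMSO, 50 nM and 100 nM libraries, each relative to the DMSO library, with 1 library per condition and no error bars. The regulators and several amino acid genes climb again from 50 to 100 nM, and the chaperones go down over both steps. ATF4, HMGCS1, SIAE, TK2, LRP3 and SAMD1 are level between the doses.

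Cytosolic chaperones went on in the opposite direction, in steps too small to be called. Of 28 tested heat shock proteins and helpers none had an interval above 0, 20 had one below, 16 were level and 0 were called, with a median log2 ratio of -0.19 after -0.21 from DMSO to 50 nM. HSPA8, the constitutive HSP70, had 110626, 83667 and 68262 counts, a log2 ratio of -0.38 (-0.39 to -0.37) after -0.37. HSPH1, its nucleotide exchange factor, had 20544, 14246 and 11658 counts (-0.38), and DNAJA1, a J-domain partner, 12676, 8746 and 7264 (-0.35). The HSP90 co-chaperones FKBP4 (7911, 6086 and 4946 counts, -0.39) and AHSA1 (6843, 5365 and 4424, -0.36) moved alike. In these 5 genes the 100 nM library was the lowest. HSP90AB1, by contrast, had 85141, 82732 and 84318 counts (-0.06, level), and HSF1 had 1373, 1406 and 1574 (0.08, level), the highest of the list. The lowest was the stress-inducible HSPA1B with 266, 231 and 186 counts (-0.40, -0.69 to -0.11), whose reads can be shared with the nearly identical HSPA1A (125, 98 and 85 counts), so that both are uncertain.

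The TRiC chaperonin, which folds actin and tubulin, had 8 of 8 listed subunits level with all 8 intervals below 0. They ran from CCT8 at 15968, 16034 and 16210 counts (-0.07) to TCP1 at 21226, 19072 and 16590 (-0.29). The median of the list was -0.10. The related gene CCT6B, outside the list, was called higher at low counts (12, 41 and 73 counts, 0.74, 0.17 to 1.33). Proteasome subunits were level in 31 of 32 genes with 21 intervals below 0 and none above, a median of -0.10, and ends at ADRM1 (0.06) and PSMB5 (2875, 2565 and 2280 counts, -0.26).

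ER genes leaned lower, with exceptions in both directions of size. Of 34 members 23 had a ratio below 0. By the rules above 23 were level, 4 had an interval above 0, 15 below and 0 were called, with a median of -0.09 after -0.09. Several luminal chaperones lay on the lower side. HSPA5, the chaperone BiP, had 18101, 11928 and 10090 counts (-0.33, -0.37 to -0.29), calreticulin CALR 33552, 25031 and 21108 (-0.33), HSP90B1 26031, 19302 and 16852 (-0.28, level), SDF2L1 864, 458 and 373 (-0.38) and MANF, the lowest, 1347, 843 and 651 (-0.46, -0.61 to -0.31). For these 5 genes both steps pointed down, and that up to 50 nM, at -0.39 to -0.88, was the larger. On the other side XBP1, a transcription factor of the unfolded protein response, had 6769, 6333 and 8437 counts and a log2 ratio of 0.33 (0.28 to 0.37) after -0.07. HSPA13, itself a chaperone of the HSP70 type, had 1438, 1517 and 1999 counts (0.31) and EDEM1, which serves degradation of misfolded protein, 2294, 2784 and 3417 (0.21, level).

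The promoters of these chaperone genes are printed with 2 further motifs, searched in the same windows and on both strands. The ER stress element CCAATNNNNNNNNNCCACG was in 13 of 8655 promoters of tested genes (0.150%) and in 6 of the 32 ER genes with a promoter, and the heat shock element GAANNTTCNNGAA in 23 (0.266%) and in 3 of 25 cytosolic heat shock genes. None of the 3 motifs is contained in another. Capitals mark the matches as before, and HSPA8 holds 2.
HSPA5 (chr9:125241365-125241435, minus strand): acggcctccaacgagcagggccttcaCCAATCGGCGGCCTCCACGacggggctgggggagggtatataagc
CALR (chr19:12938359-12938428, plus strand): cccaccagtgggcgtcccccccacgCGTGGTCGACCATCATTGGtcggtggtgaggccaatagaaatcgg
XBP1 (chr22:28800577-28800647, minus strand): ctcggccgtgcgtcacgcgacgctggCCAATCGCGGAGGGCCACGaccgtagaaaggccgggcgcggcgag
DNAJB6 (chr7:157336847-157336911, plus strand): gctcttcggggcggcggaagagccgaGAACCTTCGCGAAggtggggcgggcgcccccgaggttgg
HSPA8 (chr11:123062153-123062386, minus strand): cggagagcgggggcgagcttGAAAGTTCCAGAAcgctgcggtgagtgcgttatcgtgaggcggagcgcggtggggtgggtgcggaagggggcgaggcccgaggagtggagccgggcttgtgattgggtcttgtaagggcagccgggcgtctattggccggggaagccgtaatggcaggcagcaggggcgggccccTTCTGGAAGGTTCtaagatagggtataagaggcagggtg
XBP1 and HSPA5 carry the same ER element yet had log2 ratios of 0.33 and -0.33 between the doses, and both heat shock genes shown had ratios below 0, HSPA8 -0.38 and DNAJB6 -0.07.

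The mitochondrial genome gave the largest steps among strongly expressed genes. Both of its strands are transcribed as long precursors from a control region and cut apart at the tRNAs between the genes, and the ribosomal RNA genes come first on the strand that carries nearly all genes. MT-RNR1, the 12S ribosomal RNA (positions 648 to 1601 of the mitochondrial sequence in the deposited hg19 counts), had 15742 counts with DMSO, 26577 at 50 nM and 67427 at 100 nM. Its log2 ratio between the doses was 1.26 (1.24 to 1.28), larger than the 0.79 up to 50 nM. MT-RNR2, the 16S ribosomal RNA, had 144258, 166105 and 315015 counts and a log2 ratio of 0.84 (0.83 to 0.85) after 0.23. Together both ribosomal RNAs took 0.691%, 0.850% and 1.59% of all counts (at 100 nM 1.58% to 1.59%, 95% Wilson interval). Counts of ribosomal RNA in a library made with an mRNA kit also depend on how such RNA is carried through that kit, which was not tested.

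The mRNAs differed from the ribosomal RNAs and, roughly, by their place in the genome. Of 13 members, 2 had an interval above 0 and 11 below, 8 were level and 1 was called higher, with a median of -0.21 after -0.29. MT-ND1, just behind the ribosomal RNAs, had 66032, 55645 and 66378 counts (0.17, 0.15 to 0.18). MT-CO1 had 348497, 279240 and 292296 counts (-0.02) and MT-ND2 and MT-CO2 had -0.08 and -0.09. Farther along stood MT-ATP8 (-0.21), MT-ATP6 (-0.23), MT-CO3 with 172103, 107789 and 91340 counts (-0.33), MT-ND3 (-0.35), MT-ND4L (-0.17) and MT-ND4 (-0.24). The last genes were lowest, MT-ND5 with 76054, 43481 and 34880 counts (-0.40, -0.42 to -0.38) and MT-CYB with 51953, 33712 and 27288 (-0.39). All mRNAs together took 4.90%, 3.83% and 3.52% of the counts.

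MT-ND6 broke this order. It is the only mRNA of the other strand, and had 9188 counts with DMSO, 7332 at 50 nM and 13170 at 100 nM, so that it was lowest at 50 nM and was called higher with a log2 ratio of 0.76 (0.72 to 0.80). The gene lies opposite the stretch between MT-ND5 and MT-CYB, and the sources used here do not say if reads were assigned by strand. Nuclear copies of MT-RNR2 moved as MT-RNR2 did and not as MT-ND6: MTRNR2L8 had 75, 82 and 160 counts (0.87) and MTRNR2L2 26, 37 and 74 (0.90), both called higher. The 10 copies listed had 137, 154 and 320 counts in all. Reads of these copies can belong to MT-RNR2, so their counts are uncertain.

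**Figure D4:**
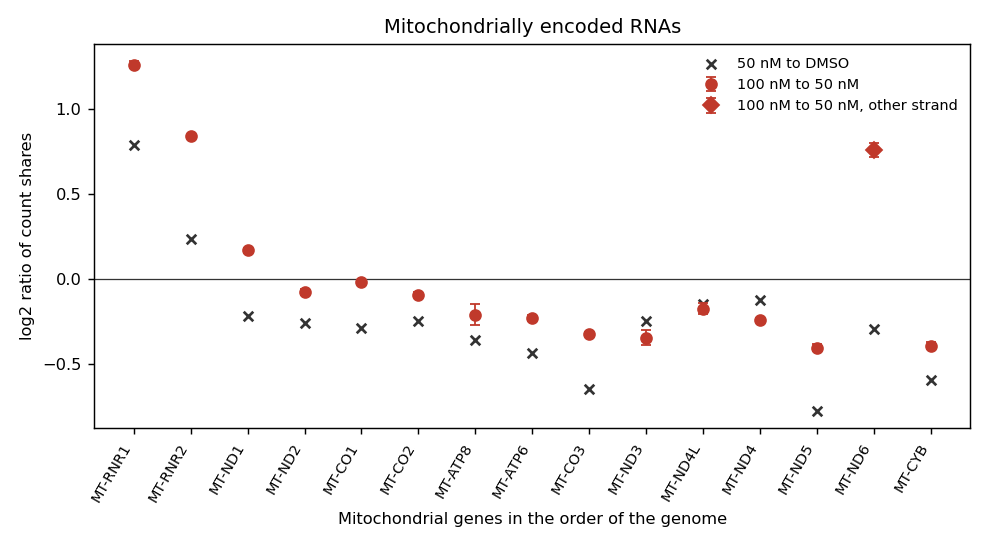
Mitochondrial genes in genome order against the log2 ratio of 100 nM to 50 nM (red, with 95% counting intervals, diamond for MT-ND6 on the other strand) and of 50 nM to DMSO (crosses). The red values go from 1.26 at MT-RNR1 down to -0.39 at MT-CYB, with MT-ND6 apart at 0.76.

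Nuclear genes for mitochondria were mostly level, with small ratios that lay more often below 0 than above it. Of complex I subunits 34 of 37 were level (median -0.08, 13 intervals below 0, 1 above), from NDUFS4 at 1360, 1401 and 1690 counts (0.18) to NDUFA3 at 58, 56 and 47 (-0.34, -0.93 to 0.25). Subunits of complexes II to V were level in 35 of 38 (median -0.08, 26 below, 1 above), between UQCRB (0.07) and COX6B1 with 6373, 6667 and 5677 counts (-0.32). Mitochondrial ribosomal proteins were level in 70 of 74 (median -0.07, 24 below, 4 above). Mitochondrial chaperones and proteases were level in 15 of 16 (-0.05, 6 below, 3 above), and TCA cycle enzymes in 18 of 18 (-0.08, 12 below, 1 above). Over all tested genes 15.3% had an interval below 0, but that share was not taken at like depth, and deeper genes have narrower intervals. The median log2 ratio over all genes with a mean of 1000 to under 5000 counts was -0.008. None of these 183 listed genes was called in either direction, where over all tested genes 0.728% were called higher and 0.273% lower. High level shares went with depth, at 95% over all genes with a mean of 1000 to under 5000 counts. The mitochondrial ribosomal RNAs thus moved between the doses without a like step in the mRNAs of mitochondrial ribosomal proteins, from MRPS25 at 0.15 to MRPL16 at -0.27.

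Cholesterol synthesis genes showed a step below 50 nM and none in common above it. Of 24 members 18 were level, 3 intervals lay above 0 and 3 below, 0 were called, and the median was 0.00 after 0.19 from DMSO to 50 nM, when 21 of the 24 ratios were positive. HMGCS1, which makes HMG-CoA, had 1812, 2828 and 3050 counts, a log2 ratio of 0.67 up to 50 nM and 0.02 (-0.05 to 0.10) beyond. SQLE, a later enzyme of the pathway, had 2724, 3289 and 3577 counts, 0.30 and then 0.03. The ends of the list were TM7SF2 with 84, 81 and 129 counts (0.58) and EBP with 1122, 1008 and 883 (-0.28).

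Single genes nearest to a plateau were taken as the 10 level genes whose ratio of 50 nM to DMSO was farthest from 0. They are a description, since level was judged on the same 50 nM library. Besides HMGCS1 and GPT2 they were the pseudogene ARHGAP27P1 (480, 776 and 770 counts), SIAE (157, 251 and 276), the mitochondrial thymidine kinase TK2 (414, 639 and 700), the carnitine and ergothioneine transporter SLC22A4 (269, 396 and 390), RUSF1 (880, 1289 and 1518) and a gene without a symbol (145, 220 and 240), all higher than with DMSO in both treated libraries. LRP3 (1523, 973 and 943) and SAMD1 (1258, 819 and 787) were lower than with DMSO in both. The log2 ratios between the doses of these 10 genes ran from -0.14 for SAMD1 to 0.22 for GPT2. Level did not mean unchanged, since GPT2 (0.15 to 0.28) and RUSF1 (0.04 to 0.26) had intervals above 0. Those of LRP3 and SAMD1 lay just below 0.

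Ribosome genes were flat at high depth. Cytosolic ribosomal proteins were level in 64 of 66 genes with a median of -0.03, 14 intervals above 0 and 35 below, from RPS24 at 32644, 30652 and 36361 counts (0.16) to RPL37A at 21669, 25432 and 21447 (-0.33). Many processed copies of such genes exist, so single members are uncertain. All 30 nucleolar factors and all 18 splicing factors and kinases were level, with medians of -0.01 and -0.01. SRSF6 had 7932, 10235 and 11994 counts, a step of 0.14 after 0.40. Of the 25 replication-dependent histone genes 2 were tested, H1-2 and H2BC12, with ratios of 0.17 and 0.12 whose intervals include 0.

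The cell cycle was described with 3 lists. DNA replication genes lay below 0 in 34 of 38 members, with 25 intervals below 0 and 2 above, 34 level, 0 called and a median of -0.11 after -0.16. FEN1, the flap nuclease, had 4727, 3513 and 2924 counts (-0.35, -0.42 to -0.28) and MCM10 2923, 2111 and 1831 (-0.29), while PRIM1 was highest at 2277, 2068 and 2371 (0.11). Genes of mitosis and the spindle had a median of 0.04 after -0.07, when 30 of the 36 ratios were negative. Between the doses 8 intervals lay above 0 and 2 below and 33 of 36 were level. The ends were CENPA at 1021, 792 and 984 counts (0.23, 0.09 to 0.36) and FOXM1 at 2005, 1871 and 1726 (-0.20). In G1 the phosphatase CDC25A had 2327, 1844 and 1495 counts (-0.39, -0.49 to -0.29) and the cyclin genes CCNE1 and CCNE2 -0.20 and -0.23, against 0.21 for CDKN1A, the inhibitor p21, with 1809, 2085 and 2557 counts. Of 17 members in that list 12 were level and 0 called.

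Glycolysis genes were level in 19 of 22 with a median of -0.08, and 13 intervals lay below 0. LDHA had 37727, 30972 and 27796 counts (-0.24), PFKM was lowest (-0.29) and the glucose transporter SLC2A3 highest with 1060, 972 and 1258 (0.29, 0.16 to 0.41). Among targets of the glucose sensor MondoA, TXNIP and ARRDC4 had their lowest counts at 50 nM. TXNIP, which limits glucose uptake, had 2017 counts with DMSO, 982 at 50 nM and 1214 at 100 nM, -1.01 and then 0.22 (0.10 to 0.34), and ARRDC4 288, 151 and 169, -0.90 and then 0.08 (-0.25 to 0.40). KLF10 was also lowest at 50 nM (389, 243 and 277 counts), while ARRDC2 and ARRDC3 were highest at 100 nM. The list also held MLXIP, the gene of MondoA itself, and MLX, that of its partner, both level. Over all 7 members the median was 0.08 after -0.17, both the values of MLXIP, 3 were level and 0 called.

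Several signalling lists also held genes that were lowest at 50 nM. Of 16 ERK output and immediate early genes 6 intervals lay above 0 and 1 below, with a median of 0.14 after -0.14, 7 level and 0 called. EGR1 had 313, 126 and 170 counts (0.34, 0.00 to 0.69) and IER2 1202, 978 and 1195 (0.20), and ETV4 had 569, 375 and 322 (-0.31). PHLDA1 was highest at 39, 38 and 52 counts (0.36, -0.27 to 1.01). Of 12 STAT5 targets 4 intervals lay above 0 and 0 below, with a median of 0.10 after -0.16, 5 level and 0 called. The ratios ran from PIM2 (-0.20, -0.56 to 0.15) to PIM1, a survival kinase gene with 461, 274 and 424 counts (0.54, 0.32 to 0.77). CISH, a feedback inhibitor, had 636, 471 and 611 (0.29). MYC, in both lists, was instead highest at 100 nM with 21175, 28215 and 33596 counts (0.17, level). A low value in the 50 nM library alone lowers the first ratio and raises the second, and with 1 library this cannot be told apart from a turn with dose.

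p53 targets lay slightly to the higher side, with 8 of 20 intervals above 0 and 1 below, 13 level, 0 called and a median of 0.10 after 0.13. BBC3, the gene of the death inducer PUMA, led with 413, 510 and 653 counts (0.27, 0.10 to 0.44). PMAIP1, the gene of NOXA, had 663, 819 and 931 counts (0.10, -0.04 to 0.24, level). Of the BCL2 family 12 of 13 were level, among them MCL1 (5948, 4933 and 5286 counts, 0.01) and BCL2 (3908, 4524 and 5396, 0.17), and BAK1 was lowest (-0.17). HIF1 targets were level in 9 of 12 with a median of 0.08 after -0.18. VEGFA, the vascular growth factor, stood apart and rose from 2276 to 3643 counts with 1363 for DMSO (0.59, 0.52 to 0.67). The other 11 ran from BHLHE40 (0.21) to ANKRD37 (-0.17). VEGFA is also a known ATF4 target.

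In the list of glucocorticoid and FOXO targets 1 gene of 11 was called and 8 were level. It was TSC22D3, the glucocorticoid-induced leucine zipper gene, with 112, 346 and 592 counts, a log2 ratio of 1.65 up to 50 nM and 0.69 (0.49 to 0.88) beyond. FKBP5, a further glucocorticoid target, had 3675, 3510 and 3332 counts (-0.16, level), and BCL6 was lowest (-0.32, -0.67 to 0.03). Interferon-stimulated genes had no common direction, with 4 of 15 intervals above 0 and 2 below. IRF7 (243, 263 and 409 counts, 0.55) and XAF1 (611, 866 and 1328, 0.53) stood against IFITM3, called lower with 82, 96 and 56 counts (-0.86, -1.37 to -0.37). NF-kB targets ran from TNFAIP3 (0.27) to ICAM1 (-0.48) with a median of -0.03, NRF2 targets were level in 14 of 16 (median -0.04, PIR 0.25 to GCLM -0.36), and lysosome and autophagy genes in 27 of 36 (median -0.04, ULK1 0.35 to GLA -0.29).

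Beyond the lists, the largest rises among genes with 200 or more counts came from genes of mixed function. KDM7A, a histone demethylase gene, had 104, 198 and 361 counts (0.78, 0.53 to 1.04). ZMAT1, a zinc finger gene, had 321, 713 and 1227 (0.70, 0.56 to 0.83), FYN, a Src family kinase gene, 197, 316 and 549 (0.71), and ADM2, a peptide hormone gene, 63, 141 and 246 (0.71). In all 4 the counts went up over both steps. PPM1M, a phosphatase gene, had 87, 119 and 202 counts (0.67), and the noncoding NIPBL-DT, with 190, 190 and 322 (0.67), differed only above 50 nM. By kind of gene, 13 of 278 tested long noncoding RNAs were called higher and 0 lower, with a median of 0.10. Of 10092 protein-coding genes 52 were higher and 15 lower, with a median of 0.00. The kinds differed in how many were level, at 60 of 278 and 7052 of 10092. Among all genes with a mean under 200 counts, 62 of 1941 were higher and 29 lower, with a median of 0.05. The kinds were not compared at like depth. Transcript length moved with the ratio, whose median was -0.02 over the 2197 genes of at most 1645 bases and 0.03 over the 2196 genes of 4954 bases or more, and its part in the lists was not tested.

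Only 1 gene with a symbol and 200 or more counts was called lower under the 1.5-fold rule, the zinc finger gene ZNF438 with 244, 291 and 199 counts (-0.63, -0.90 to -0.37). Of the fainter ones, 3 named here after their values were seen were AVPI1 (44, 64 and 34), the T cell receptor chain gene CD247 (126, 141 and 79) and CRIP1 (114, 119 and 69), each called lower.

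The largest falls belonged to genes without a symbol that lie opposite strongly expressed ones. Of the tested genes 26 overlapped, on the other strand, an exon of 1 of 337 genes that averaged 10000 counts or more. The 16 with a symbol had a median log2 ratio of -0.06 and 0 calls. All 10 without a symbol were called lower and made up 10 of the 30 lower genes, with a median of -1.52 after 1.28 from DMSO to 50 nM. The gene opposite ACTB, the beta-actin gene (hg19 chromosome 7, 5566778 to 5573677, plus strand), had 102 counts with DMSO, 233 at 50 nM and 42 at 100 nM (-2.54, -3.07 to -2.08). That opposite EEF1A1, the elongation factor gene, had 77, 220 and 46 (-2.33), and that opposite TPT1 had 60, 221 and 54 (-2.11). In all 10 the 50 nM library was the highest. The opposite genes themselves did not follow, since ACTB had 94970, 95080 and 94918 counts (-0.09) and EEF1A1 190417, 215554 and 231039 (0.01). As a share of the opposite gene's counts, the gene at ACTB took 0.107%, 0.245% and 0.0442%. The 50 nM library thus stood apart from both others in counts on these strands. Without the 26 genes 80 were higher, 20 lower and 7237 level, a comparison added after the values were seen.

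**Figure D5:**
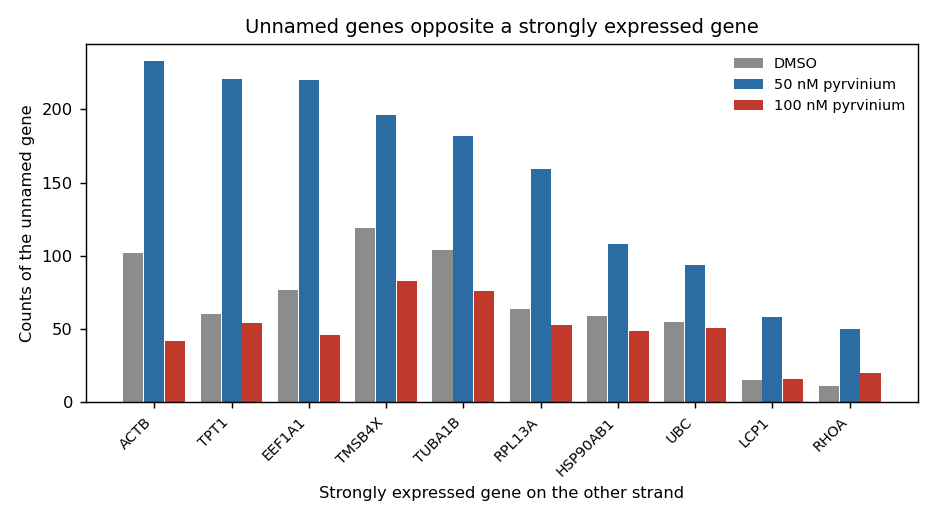
Bars show the counts of 10 genes without a symbol in the DMSO, 50 nM and 100 nM libraries, named by the strongly expressed gene on the other strand. The 50 nM bar is the highest of each set, from 50 counts opposite RHOA to 233 opposite ACTB.

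The label of the cells was compared with marker genes. Of 15 myeloid markers 13 had 50 or more counts in both treated libraries, with CD14 and ANPEP at 2 counts or fewer. CD33 had 2015, 1910 and 1965 counts (-0.05, level), SPI1 2981, 2667 and 2491 (-0.18, level), LYZ 7607, 7067 and 7768 (0.05, level) and FLT3 6304, 9012 and 11181 (0.22, level, after 0.55). The summed level of the 15 markers was 1228, 1300 and 1375 CPM, of which FLT3 alone took 272, 397 and 464, so the rise of the sum does not describe the markers as a group. Of 14 lymphoid, erythroid and platelet markers 1, NKG7, reached 50 counts (391, 411 and 414), and the whole list had 425, 454 and 431 counts. At 50 nM 7 of the 14 were at 0 counts and at 100 nM 9 were, and HBB had 0 counts with DMSO, 16 at 50 nM and 0 at 100 nM. In the program of HOXA genes and MEIS1 that drives this kind of leukemia, 7 of 9 members were level, from PBX3 (3317, 3737 and 4429 counts, 0.16) to HOXA11 (363, 315 and 246, -0.44, -0.69 to -0.20), with HOXA9 at 1817, 1533 and 1603 (-0.02) and MEIS1 at 1346, 1419 and 1533 (0.03).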

How the data were processed

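RNA of Molm13 cells was sequenced with 1 library each for DMSO, 50 nM and 100 nM pyrvinium (6 h). The labels' treatment text writes the higher dose without its prefix, and the titles' 100 nM was used. Per the methods and file headers, the authors aligned the paired reads with Rsubread (hg19). They deposited raw counts per gene that were not normalized. The strand setting of the counting is not given in the sources used here. The table of the authors' own EBSeq comparisons was not used.

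Of 25702 gene identifiers, 23696 were given a symbol and 15 mitochondrial genes were named by position (GENCODE 44 on GRCh37). The 100 nM and 50 nM libraries were compared gene by gene (exact binomial test, two-sided, scipy 1.17.1) given their total counts, with Benjamini-Hochberg adjustment over 10982 genes and log2 ratios with 0.5 counts added. It compares 2 libraries, not the doses, and intervals cover counting error only, at 22677038 and 24075123 counts a library. Tests with a spread between replicates could not be fitted. The calls and intervals were checked on simulated counts. Alternatives were TMM (edgeR 4.0.16) and DESeq2 1.42.0 size factors, totals without mitochondrial genes, other count minimums, folds, limits and counts added, and an assumed coefficient of variation.

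The lists held 897 genes, 802 of them tested and 15 in more than 1 list. The comparison, the 39 lists and the alternatives were chosen with earlier results of these data known. Genes named are the 12 largest rises and falls among called genes with at least 200 counts and a symbol, genes whose transcript the study names, the ends of each list and all members of lists with at most 15 tested, and the 10 level genes farthest from DMSO at 50 nM. Other genes were picked after their values were seen. Some results are not reported here.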

Additional observations from a re-analysis of the deposited data

How the results depend on the processing

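With 80 genes higher, 30 lower and 7246 level between the doses as the starting point, the scalings (TMM, DESeq2 size factors, totals without mitochondrial genes) gave 78 to 82 higher, 28 to 30 lower and 7246 to 7253 level. A minimum of 200 counts left 23 higher and 4 lower, and minimums of 10 counts and 1 count gave 61 and 55 lower. A rule of 25% above or 20% below gave 242 higher and 127 lower, and a 2-fold rule 5 and 9. An assumed biological coefficient of variation of 0.1 left 1 higher and 7 lower, and 0.2 left 0 and 3 (edgeR exact test; with p unadjusted at the same 0.05 and 1.5-fold, 76 and 28 at 0.1, 5 and 10 at 0.2). Level limits of 1.1-fold left 1927 genes. Medians of 36 lists moved by at most 0.022 (log2) under 5 of 6 settings, and by up to 0.221 with a minimum of 200 counts. The sign changed for 2 medians near 0, cholesterol synthesis (-0.00057 to 0.0059 without mitochondrial totals) and interferon-stimulated genes (-0.035 to 0.19 with at least 200 counts), and for 2 named genes within 0.00142 of 0 (PYCR1 and BAD), and no named gene that was called changed direction. No library could be left out with 1 a side. No paired analysis was possible because each condition has 1 library. Genes under about 200 counts could rarely be called level at this depth.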
